A study of Mus musculus with 6 samples.

Results

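Mitosis and cytokinesis genes carry out the last steps of the cell cycle, from chromosome condensation to the separation of the daughter cells. The 57 genes described here are named genes of this machinery rather than genes past a measured threshold, and all 57 were found among the 24063 gene symbols counted. They were read in lung endothelial cells (ECs) of male C57BL6 mice, 8 weeks old by the sample labels (the methods give an older age), 7 days after left unilateral pneumonectomy (PNX), the removal of the left lung, or after a sham operation in which the chest was opened and the lung left in place. The labels name no mutation and no further treatment in either group. The ECs were taken from lung with beads against CD31, a surface protein of ECs that other cells can carry too, and each of the 3 sham and 3 PNX libraries was pooled from 2 mice. By the labels, replicates 1 and 2 of either group had been deposited before, under another record (here the earlier deposit), whereas replicate 3 had not (the later deposit).

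A cell enters mitosis when cyclin B and the kinase CDK1 become active. Kinetochores then assemble on the centromeres, kinesins and spindle proteins build the spindle, and a checkpoint holds back the anaphase-promoting complex (APC/C), a ubiquitin ligase, until every chromosome is attached. Cytokinesis divides the cell. In the adult lung most ECs are at rest, and most of these genes are transcribed only as a cell nears division.

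Total counts ranged from 29526989 to 81282871 per library and were lowest in replicate 3 of each group. Replicates 1 and 2 of a group differed by little more than the counting error. Their chi-square per degree of freedom was 1.75 in sham and 1.57 in PNX, where counting error alone gives 1, against 67.9 to 87.1 for pairs with replicate 3. The pair was therefore added up and taken as 1 sample, so that each group has n = 2. Levels are given as CPM, counts scaled to a common library total after TMM normalization, which takes out differences in composition. The labels give no separate litters or days beyond the deposit, so p-values measure the spread between these samples.

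PNX libraries held several times more RNA of these genes than sham libraries. The 57 genes together made up 0.0379%, 0.0372% and 0.0576% of all counts in the 3 sham libraries, in the order of their replicate numbers, and 0.223%, 0.223% and 0.311% in the 3 PNX libraries. For 56 of the 57 genes all 3 PNX libraries lay above all 3 sham libraries, which was so for 18.8% of the 16598 genes tested. The exception was Pttg1, whose 3 PNX libraries all lay below the sham libraries, as did those of 17.9% of all genes tested. The median log2 fold change of the 57 genes was 2.70, a 6.51-fold higher level, against -0.01 over all genes tested. Their middle range was narrow, with quartiles of 2.21 and 3.01 and an SD of 0.68 over genes. Of the 57 genes, 7 had a log2 fold change between 1 and 2, 34 between 2 and 3 and 15 above 3. Over all genes tested, 5.84% were above 1, 2.32% above 2 and 0.735% above 3. In RNA from many cells, more dividing cells and more RNA of these genes per cell cannot be told apart.

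All 57 genes passed the filter on low counts and were tested with edgeR's quasi-likelihood test with Benjamini-Hochberg adjustment over all 16598 genes. A call needed an adjusted p below 0.01 together with a log2 fold change larger than 1 in size. On the 4 samples without a block, edgeR called 0 genes and 0 of the 57, although each of the 57 had an unadjusted p under 0.05, as did 12.5% of all genes. Their adjusted p in that fit was 0.0720 to 0.184. With the deposit as a replicate block, which has 1 residual degree of freedom, edgeR called 56 of the 57, all higher after PNX. That fit called 5.12% of all genes, 3.89% higher and 1.23% lower (645 and 204 genes, or 540 and 84 with DESeq2's size factors and 550 and 79 with library size alone). With 6 separate libraries edgeR called 51 of the 57, all higher, against 2.51% of all genes (2.28% higher and 0.240% lower). That fit counts replicates 1 and 2 of each group as separate samples, although they differed by little more than counting error. It can therefore understate the spread, and its calls and p-values, here and below, are no independent check on the other fits. Without single libraries the fit with 6 separate libraries called 0 to 54 of the 57 and 0 to 517 of all genes. DESeq2 called 56 on the 4 samples and limma-voom 0. In what follows, "rose" is used of genes called with the replicate block, and fold changes and SEs are those of the fit without it. Each SE was derived from the test, as the size of the log2 fold change divided by the square root of its F statistic. Where 2 adjusted p-values follow a gene they are from edgeR without and with the block.

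**Figure D1:**
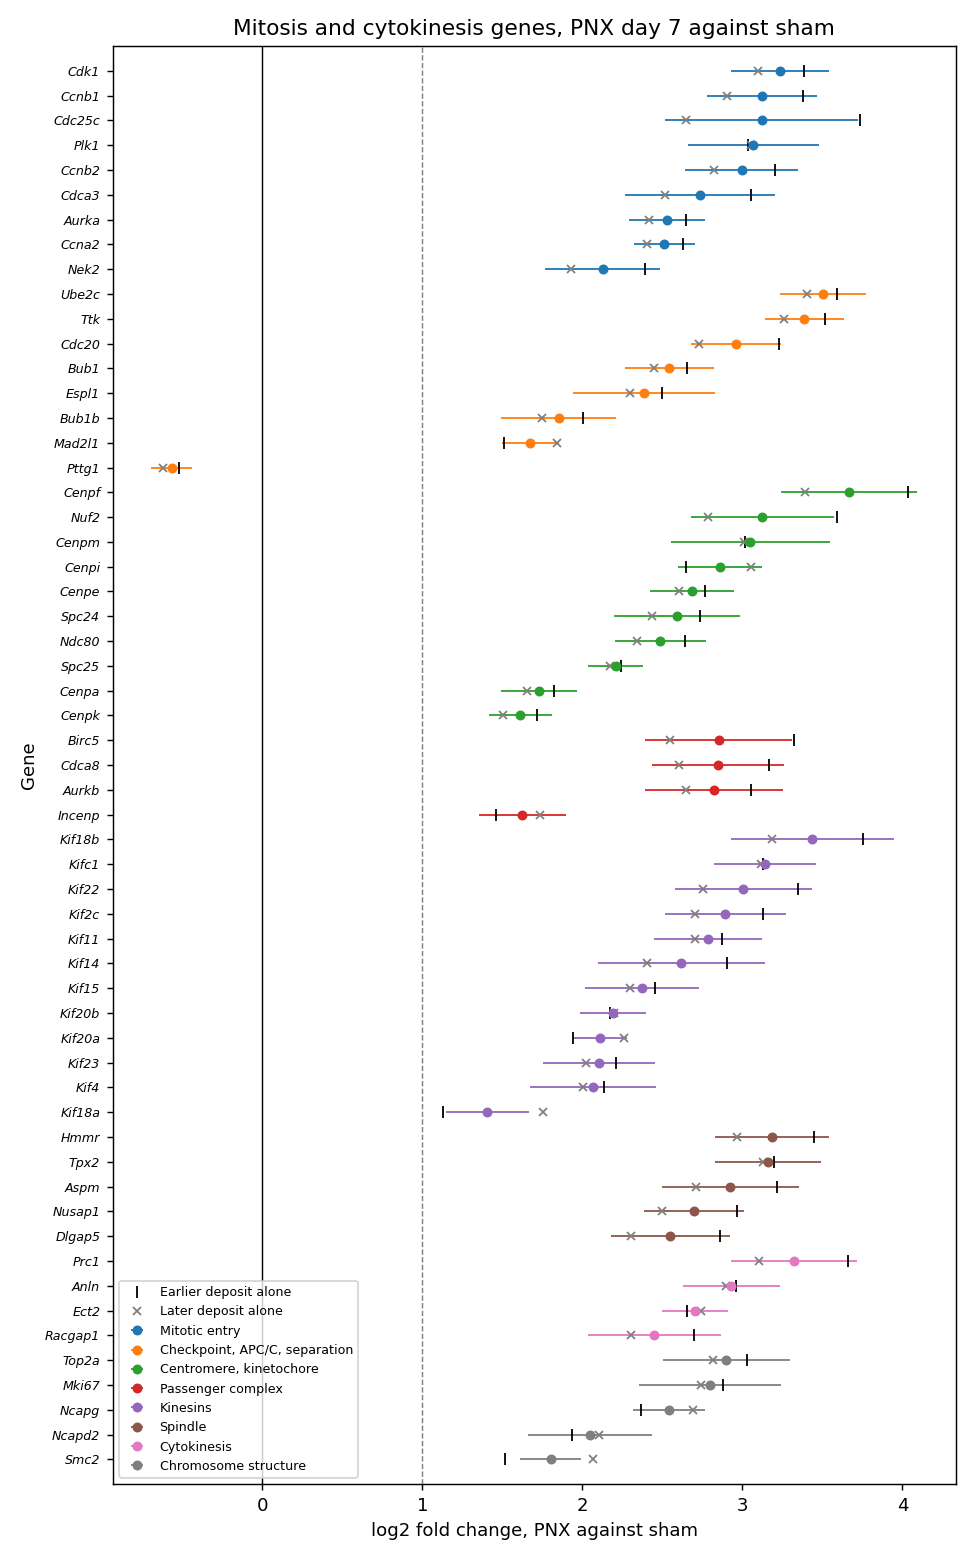
Log2 fold change of each of the 57 genes, PNX against sham, by role. Points and bars are the fitted value and its SE (n = 2 samples per group, no block), ticks and crosses are the ratios within the earlier and the later deposit, and the dashed line marks 1. Pttg1 lies at -0.57 and the other 56 genes lie between 1.41 and 3.67.

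**Figure D2:**
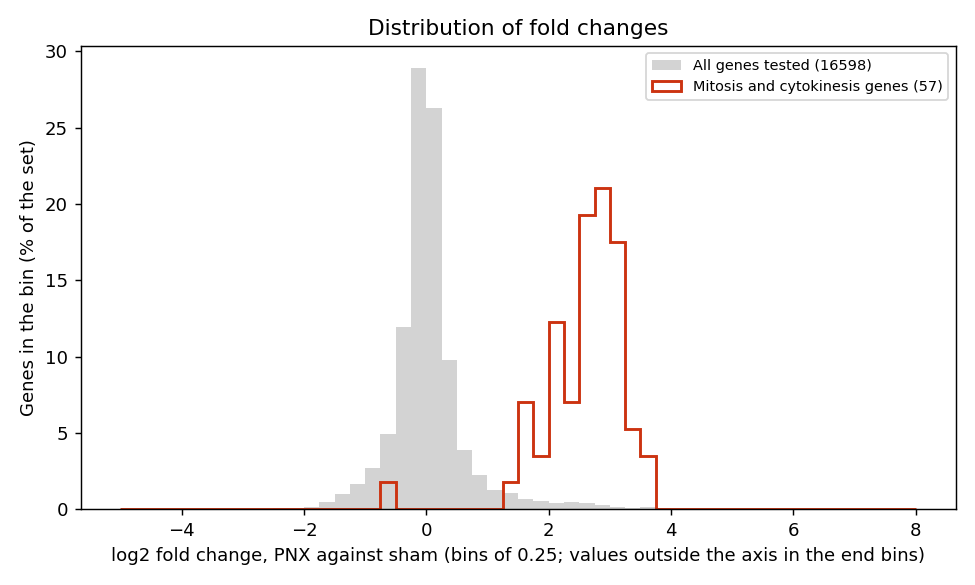
Share of genes in each bin of log2 fold change, PNX against sham, for the 16598 genes tested (grey) and the 57 mitosis and cytokinesis genes (red line). The median of all genes is -0.01 and that of the 57 genes is 2.70.

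The promoters of genes that act in mitosis are known to share short elements, the cell cycle genes homology region (CHR, searched as TTTGAA or TTTAAA) and the CCAAT box (searched as CCAAT). Both were searched on both strands in RefSeq promoters of 300 bases (GRCm38.p6), 250 before to 50 after the start. TTTAAA reads the same on both strands, and matches of the 2 motifs can share bases. Of the 57 genes, 49 matched a promoter. A CHR match stood in 39 of the 49 (79.6%), against 23.3% of 12064 genes tested with a promoter and 30.6% of all 27025 genes with one. A gene with several promoters was counted once, by a match in any of them. Within 50 bases of the start, 71.4% of the 49 had one, against 6.47% and 9.54%. A CCAAT match stood in 77.6%, against 42.0% and 41.1%, and both motifs in 67.3%, against 9.33% and 12.2%. The 10 genes with no CHR match had a median log2 fold change of 2.33 and the 39 with one 2.80. Pttg1, Kif18a, Mad2l1, Nusap1 and Nuf2 had neither motif, and their log2 fold changes ran from -0.57 for Pttg1 to 3.12 for Nuf2.

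The 160 bases before the start are shown for 6 genes, those with the highest fold change among genes whose promoter held both motifs. The same 6 genes were the highest among all those with a promoter. Pttg1, the gene that went the other way, is shown too, chosen after its values were seen. Capitals mark CHR and CCAAT matches on either strand (TTTGAA reads TTCAAA and CCAAT reads ATTGG on the other strand).
Cenpf (chr1:189688087-189688246, minus strand): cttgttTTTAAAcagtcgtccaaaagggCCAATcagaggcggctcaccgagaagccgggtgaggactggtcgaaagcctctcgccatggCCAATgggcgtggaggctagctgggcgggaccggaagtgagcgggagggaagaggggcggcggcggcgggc
Ube2c (chr2:164769769-164769928, plus strand): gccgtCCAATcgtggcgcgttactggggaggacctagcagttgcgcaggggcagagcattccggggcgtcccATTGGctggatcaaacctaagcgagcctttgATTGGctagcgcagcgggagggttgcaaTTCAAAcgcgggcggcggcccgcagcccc
Kif18b (chr11:102925125-102925284, minus strand): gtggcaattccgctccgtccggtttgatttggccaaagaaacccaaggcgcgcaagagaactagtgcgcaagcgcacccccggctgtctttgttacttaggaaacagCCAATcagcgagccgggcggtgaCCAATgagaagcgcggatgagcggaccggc
Ttk (chr9:83834529-83834688, plus strand): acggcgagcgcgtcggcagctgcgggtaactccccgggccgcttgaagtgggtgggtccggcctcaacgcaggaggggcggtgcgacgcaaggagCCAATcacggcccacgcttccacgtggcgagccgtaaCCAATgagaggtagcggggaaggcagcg
Prc1 (chr7:80294316-80294475, plus strand): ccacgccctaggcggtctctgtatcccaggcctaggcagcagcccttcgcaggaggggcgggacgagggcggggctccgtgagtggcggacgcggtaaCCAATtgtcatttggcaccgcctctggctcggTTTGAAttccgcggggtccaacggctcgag
Cdk1 (chr10:69352913-69353072, minus strand): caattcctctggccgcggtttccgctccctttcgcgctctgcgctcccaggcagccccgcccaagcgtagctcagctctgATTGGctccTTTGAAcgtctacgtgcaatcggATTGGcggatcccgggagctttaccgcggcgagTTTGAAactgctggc
Pttg1 (chr11:43425982-43426141, minus strand): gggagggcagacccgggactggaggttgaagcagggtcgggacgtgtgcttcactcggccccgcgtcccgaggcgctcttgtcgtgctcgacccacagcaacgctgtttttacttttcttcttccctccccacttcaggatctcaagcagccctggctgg

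All 6 promoters of the strongly raised genes held at least 1 CCAAT match in these bases. Holding both motifs was a condition for being shown, so their presence in these 6 promoters is no test of the motifs. Cenpf, Ube2c and Prc1 held 1 CHR match here and Cdk1 held 2. In Kif18b and Ttk the only CHR match began at positions 4 and 8, with the start base as 1. The Prc1 promoter shown is the one with more matches in these bases. In its other promoter the CHR match began at position -5 and crossed the start. Pttg1 held neither in the bases shown.

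All 9 genes of mitotic entry rose (9 of 9 with the replicate block and 9 of 9 with 6 libraries), with a median log2 fold change of 2.99. Cdk1, the kinase that drives entry into mitosis (chr10:69335146-69352938, minus strand, GRCm38), stood at 3.23, 3.38 and 5.38 CPM in sham replicates 1, 2 and 3 and at 36.4, 33.6 and 45.1 CPM in the PNX replicates. The groups did not overlap, and Cdk1 had the largest change of the 9, with a log2 fold change of 3.23 ± 0.31 (SE), adjusted p = 0.0720 without and 1.32e-05 with the block. Its partner cyclin B1, Ccnb1 (chr13:100778650-100786570, minus strand), stood at 1.82, 1.48 and 2.97 CPM in the sham libraries and 17.3, 17.9 and 21.8 CPM in the PNX libraries, a log2 fold change of 3.12 ± 0.34 (SE) (adjusted p = 0.0738 and 2.58e-05). Ccna2, cyclin A2, which acts from DNA replication to early mitosis, had the highest count of the 9. It stood at 9.26, 9.09 and 12.2 CPM in the sham libraries and 57.4, 58.2 and 63.3 CPM in the PNX libraries, a log2 fold change of 2.51 ± 0.19 (SE) (adjusted p = 0.0720 and 1.63e-05). Plk1, the Polo-like kinase of centrosomes and kinetochores, went from 1.84, 1.79 and 3.12 CPM to 15.4, 14.7 and 25.3 CPM (3.07 on the log2 scale, adjusted p = 0.0873 and 1.66e-05). Nek2, a kinase that separates the centrosomes, changed least, from 3.61, 3.48 and 6.65 CPM in sham to 19.2, 18.7 and 24.9 CPM in PNX. Its log2 fold change was 2.13 ± 0.36 (SE) (adjusted p = 0.119 and 8.45e-05), and its lowest PNX library was still well above its highest sham library. The other 4 genes were Cdc25c (the phosphatase that activates CDK1), Ccnb2, Cdca3 and Aurka (the kinase of spindle poles), at 3.12, 2.99, 2.73 and 2.53.

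Of the 8 genes of the spindle checkpoint, the APC/C and sister separation, 7 rose and Pttg1 did not. Ube2c, the ubiquitin-conjugating enzyme of the APC/C (chr2:164769898-164778822, plus strand), stood at 1.89, 2.09 and 2.91 CPM in the sham libraries and 24.3, 24.4 and 30.2 CPM in the PNX libraries. Its log2 fold change of 3.50 ± 0.27 (SE) was the largest of the 8 (adjusted p = 0.0720 and 1.32e-05). A gene on the opposite strand, Tnnc2, overlaps 22.8% of its exon bases, and whether strand was used in counting is not stated. Ttk, the checkpoint kinase MPS1, and Cdc20, the activator of the APC/C, followed at 3.39 and 2.96. The checkpoint genes Bub1, Bub1b and Mad2l1 had log2 fold changes of 2.54, 1.85 and 1.67. Espl1, the protease separase that cuts cohesin, was at 2.39. With 6 separate libraries Bub1b (adjusted p = 0.0129) and Espl1 (adjusted p = 0.0116) missed the edgeR threshold.

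Pttg1 encodes securin, which holds separase inactive until the APC/C has it destroyed (chr11:43420250-43426251, minus strand). It stood at 50.5, 49.9 and 51.4 CPM in the sham replicates and 35.0, 36.5 and 32.9 CPM in the PNX replicates. Every PNX library was below every sham library, and the ratio of PNX to sham was 0.698 within the earlier deposit and 0.651 within the later one. By the counts of its transcript with the highest total, the exact 95% intervals of these ratios, which cover counting error only, were 0.676 to 0.747 and 0.578 to 0.721. The log2 fold change was -0.57 ± 0.13 (SE), within the threshold of 1 in size. The adjusted p of Pttg1 in edgeR was 0.184 without the block, 0.00404 with it and 0.00607 with 6 libraries. The last of these fits counts libraries that hardly differ as separate samples, so its p-value can be too small. Among the 57 genes Pttg1 was thus the one measured lower after PNX, in opposite direction to Espl1, whose product it binds.

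All 10 centromere and kinetochore genes rose (10 of 10 with 6 libraries), with a median log2 fold change of 2.64. Cenpf, a large protein of the outer kinetochore (chr1:189640606-189688086, minus strand), went from 2.48, 2.58 and 5.41 CPM in sham to 42.3, 42.2 and 55.7 CPM in PNX. Its log2 fold change of 3.67 ± 0.43 (SE) was the highest of all 57 genes (adjusted p = 0.0741 and 1.84e-05). Sham replicate 3 was above the other sham libraries, and the ratio was 16.4 within the earlier deposit and 10.5 within the later one. Cenpk, a protein of the inner kinetochore, changed least in this group, from 2.73, 3.39 and 3.24 CPM to 9.49, 10.9 and 8.99 CPM (1.61 ± 0.20 (SE) on the log2 scale, adjusted p = 0.0782 and 0.000434). Spc25, a subunit of the NDC80 complex that grips microtubules, had the highest count of the 10 when its 3 transcripts, of nearly equal counts, are summed, and by the transcript with the highest total Cenpf was above it. It stood at 9.27, 8.62 and 10.8 CPM in the sham libraries and 42.6, 43.6 and 48.0 CPM in the PNX libraries, a log2 fold change of 2.21 ± 0.17 (SE) (adjusted p = 0.0720 and 1.73e-05). The other NDC80 subunits Nuf2, Spc24 and Ndc80 were at 3.12, 2.59 and 2.49. Cenpa, the histone H3 variant that marks centromeres, was at 1.73, and Cenpm, Cenpi and Cenpe, a kinetochore motor, were at 3.05, 2.86 and 2.69.

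The chromosomal passenger complex, which corrects wrong attachments and later directs cytokinesis, rose with all 4 subunits (4 of 4 with 6 libraries). Aurkb, its kinase (chr11:69045647-69051664, plus strand), stood at 1.99, 1.90 and 3.98 CPM in the sham libraries and 17.1, 15.7 and 24.4 CPM in the PNX libraries, a log2 fold change of 2.82 ± 0.43 (SE) (adjusted p = 0.107 and 2.7e-05). Birc5, survivin, went from 3.82, 3.68 and 8.88 CPM to 36.6, 40.1 and 51.0 CPM. Its log2 fold change was 2.85 ± 0.46 (SE) (adjusted p = 0.111 and 6.54e-05), and Cdca8, borealin, was at 2.85. Incenp, the scaffold of the complex, changed least. It stood at 11.3, 11.0 and 14.5 CPM in the sham libraries and 31.5, 31.1 and 47.5 CPM in the PNX libraries, a log2 fold change of 1.62 ± 0.27 (SE) (adjusted p = 0.117 and 9.04e-05).

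All 12 kinesins rose, 10 of them also with 6 libraries, and their median log2 fold change was 2.50. Kif18b, which acts at the plus ends of microtubules (chr11:102905529-102925124, minus strand), stood at 0.906, 1.26 and 2.55 CPM in the sham libraries and 15.0, 14.4 and 22.8 CPM in the PNX libraries, a log2 fold change of 3.44 ± 0.51 (SE) (adjusted p = 0.103 and 2.58e-05). Its paralogue Kif18a, which dampens chromosome movements, had the smallest rise of all 56 raised genes. It stood at 3.29, 3.20 and 2.35 CPM in the sham libraries and 7.54, 6.89 and 7.75 CPM in the PNX libraries, a log2 fold change of 1.41 ± 0.26 (SE) (adjusted p = 0.137 and 0.00288), and without PNX replicate 1 it was not called with the block. Replicate 3 was the lowest of the sham libraries for Kif18a and the highest of them for Kif18b. Kif20a, a kinesin of the central spindle, had the highest count of the 12, at 31.4, 31.2 and 32.3 CPM in the sham libraries and 122, 123 and 152 CPM in the PNX libraries (2.11 ± 0.17 (SE) on the log2 scale, adjusted p = 0.0720 and 2.58e-05). The APC/C gene Cdc23 overlaps 29.3% of its exon bases on the opposite strand, and Cdc23 itself was at 0.26. Among the others, Kifc1, Kif22, Kif2c and Kif11, the motor that pushes the spindle poles apart, were at 3.14, 3.01, 2.89 and 2.78. Kif15, Kif20b and Kif23 were at 2.38, 2.19 and 2.10. Kif14 and Kif4, at 2.62 and 2.07, were the kinesins not called by edgeR with 6 libraries (adjusted p = 0.0128 and 0.0121).

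All 5 spindle genes rose, within a range of log2 fold change from 2.55 to 3.19. Hmmr, a receptor for hyaluronan that also binds the spindle, went from 2.15, 2.12 and 3.92 CPM in sham to 23.6, 23.8 and 30.1 CPM in PNX, a log2 fold change of 3.19 ± 0.35 (SE) (adjusted p = 0.0738 and 2.09e-05). Tpx2, which activates Aurora A on the spindle, had the highest summed count of all 57 genes, at 22.6, 23.9 and 37.2 CPM in the sham libraries and 216, 218 and 319 CPM in the PNX libraries (3.16 ± 0.33 (SE) on the log2 scale, adjusted p = 0.0738 and 1.22e-05). It has 5 transcripts with almost equal counts, whose sum can hold the same reads more than once, so its CPM cannot be set against that of other genes. Dlgap5 stood at 1.72, 1.69 and 3.27 CPM in the sham libraries and 12.6, 12.6 and 15.8 CPM in the PNX libraries and was the lowest of the 5, at 2.55 ± 0.37 (SE) (adjusted p = 0.0990 and 9.22e-05). Aspm, of the spindle poles, and Nusap1, of the spindle microtubules, were at 2.92 and 2.70.

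All 4 cytokinesis genes rose. Prc1, which bundles the microtubules of the central spindle (chr7:80294450-80316259, plus strand), stood at 17.2, 13.7 and 31.2 CPM in the sham libraries and 203, 196 and 263 CPM in the PNX libraries, a log2 fold change of 3.32 ± 0.40 (SE) (adjusted p = 0.0744 and 1.73e-05). Racgap1, which with Kif23 forms centralspindlin, went from 24.1, 21.5 and 46.6 CPM to 148, 154 and 226 CPM (2.45 ± 0.42 (SE) on the log2 scale, adjusted p = 0.120 and 2.09e-05). Its levels in replicate 3 were the highest within each group. Anln, anillin of the contractile ring, and Ect2, the activator of RhoA, were at 2.93 and 2.70.

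The 5 genes of chromosome structure rose, 4 of them also with 6 libraries. Mki67, which coats mitotic chromosomes and is the proliferation marker Ki-67 (chr7:135689784-135716361, minus strand), stood at 16.3, 17.0 and 32.6 CPM in the sham libraries and 125, 125 and 214 CPM in the PNX libraries. Its log2 fold change was 2.80 ± 0.44 (SE) (adjusted p = 0.111 and 1.22e-05). Top2a, topoisomerase II alpha, which untangles sister DNA (chr11:98992943-99024189, minus strand), went from 13.5, 13.5 and 25.2 CPM to 113, 111 and 174 CPM, a log2 fold change of 2.90 ± 0.40 (SE) (adjusted p = 0.0889 and 1.22e-05). In both genes sham replicate 3 was above the other sham libraries and PNX replicate 3 above the other PNX libraries. Smc2, the ATPase core of condensin, changed least, from 14.5, 13.8 and 13.0 CPM in sham to 41.2, 41.3 and 53.4 CPM in PNX (1.80 ± 0.19 (SE) on the log2 scale, adjusted p = 0.0738 and 0.000192). The condensin I subunits Ncapg and Ncapd2 were at 2.54 and 2.05, and Ncapd2 missed the edgeR threshold with 6 libraries (adjusted p = 0.0130).

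**Figure D3:**
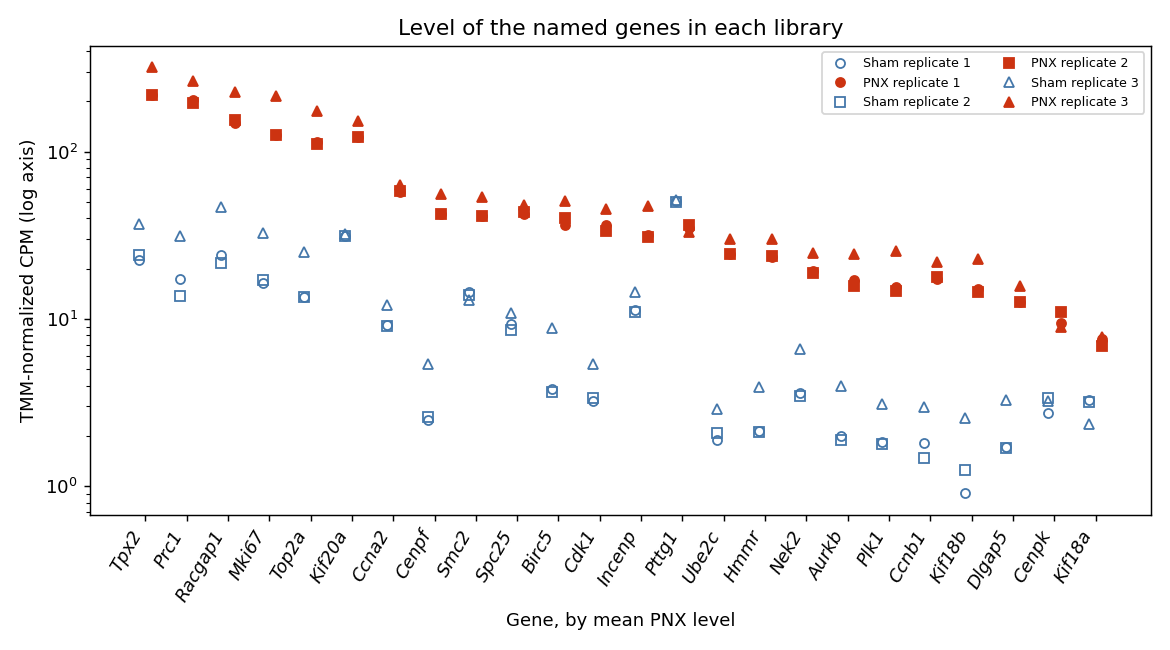
TMM-normalized CPM on a log axis for 24 of the 57 genes, with open blue symbols for the sham libraries, filled red symbols for the PNX libraries and a shape for each replicate. Pttg1 is at 49.9 to 51.4 CPM in sham and 32.9 to 36.5 CPM in PNX, and in the other 23 genes every red symbol is above every blue one.

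Levels of different genes were compared by the deposited TPM of the transcript with the highest total, which is per length. For the 15 genes with several transcripts, such as Kif20a, Prc1, Racgap1, Tpx2, Spc25 and Birc5, this is not the level of the whole gene if reads were divided among transcripts, which is not stated, so the order of levels and the shares within complexes depend on it. The summed TPM of the 57 genes was 223, 221 and 322 in the sham replicates and 1193, 1190 and 1638 in the PNX replicates. In sham, Pttg1 was the most abundant at 39.0 ± 0.227 TPM (SD, n = 2), followed by Cenpa at 13.5 ± 3.15 and Incenp at 10.01 ± 1.75. By this measure these 3 were over 10 TPM in sham, and each of them lay in the lower part of the fold changes. Sham level is also the denominator of the fold change. Sham TPM of the earlier deposit and the log2 ratio of the later one had a Spearman's rho of -0.39 over the 57 genes. The reverse pairing gave -0.27. In PNX, 47 genes were over 10 TPM, with Ube2c at 73.5 ± 12.4, Top2a at 68.9 ± 22.1, Prc1 at 64.0 ± 13.6, Ccna2 at 54.0 ± 4.44 and Cdc20 at 52.3 ± 4.87 TPM (SD, n = 2) the highest. In this order each mean differed from the next by less than the SD of one of the pair. Pttg1 ranked 1 of 57 in sham and 21 of 57 in PNX, where it was at 26.4 ± 0.913 TPM. Under 1 TPM in sham were 6 genes, Kif14, Cdc25c, Ttk, Cenpf, Aspm and Cenpi.

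Within complexes the proportions of the subunits' RNA differed between groups in some cases and little in others. Of the TPM of the passenger complex, Incenp held 56.2%, 56.2% and 44.1% in the 3 sham libraries and 28.7%, 28.0% and 30.1% in the 3 PNX libraries. Its 4 subunits were thus closer to equal in PNX than in sham. In the NDC80 complex Spc25 held 48.8%, 43.9% and 36.2% in sham and 33.3%, 33.9% and 30.8% in PNX, and Nuf2 held 15.3%, 17.1% and 24.2% in sham and 29.8%, 29.8% and 30.8% in PNX. For both subunits the groups did not overlap, with sham replicate 3 nearest to PNX. Cdk1, Ccnb1 and Ccnb2 kept closer proportions, with Cdk1 at 29.8% to 33.3% of their TPM in sham and 33.0% to 34.5% in PNX. No test was made of these shares.

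**Figure D4:**
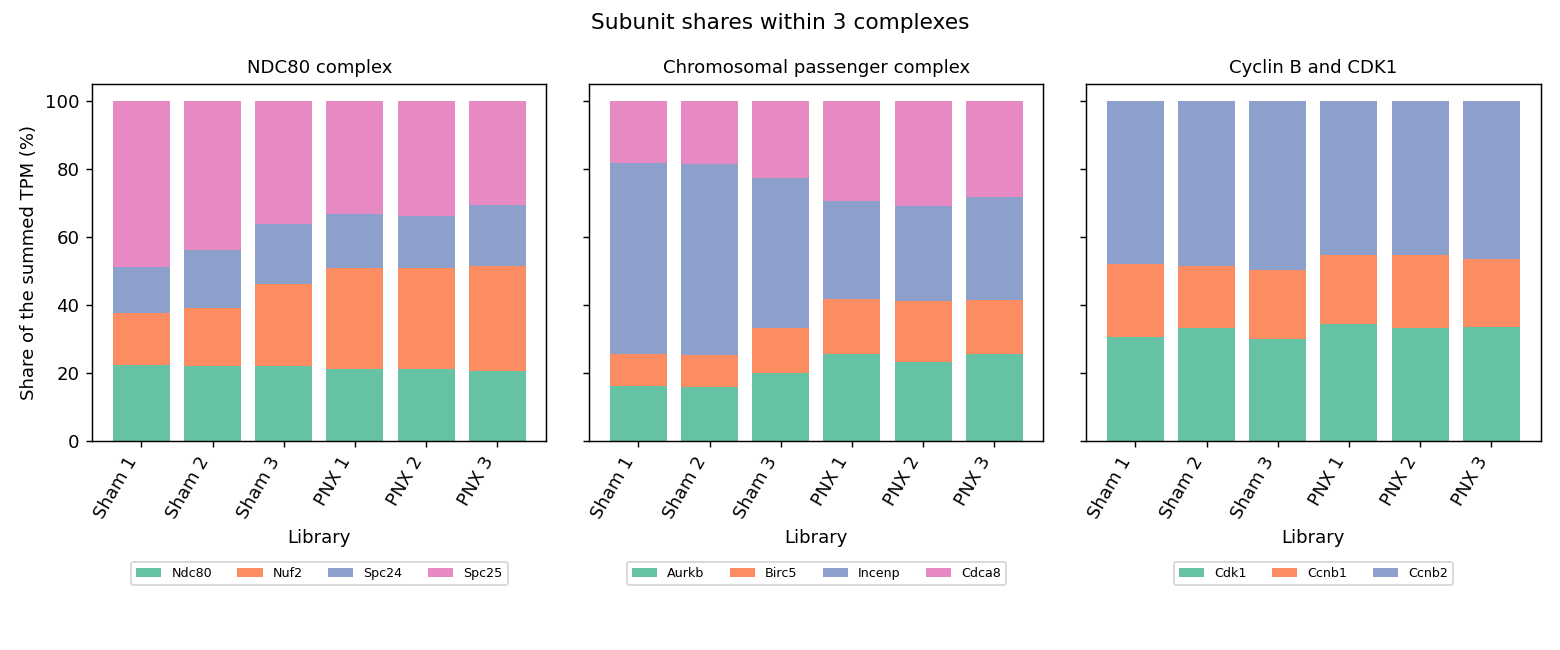
Share of each subunit in the summed TPM of its complex, in percent, in each library. Incenp takes 44.1% to 56.2% of the passenger complex in sham and 28.0% to 30.1% in PNX, whereas Cdk1 stays between 29.8% and 34.5% of the cyclin B and CDK1 group.

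The direction was the same in both deposits for all 57 genes, 56 of them higher after PNX in both, as were 36.0% of all genes tested. The median ratio of PNX to sham was 7.31 within the earlier deposit and 6.07 within the later one, and without Pttg1 the ratios ran from 2.19 to 16.4 and from 2.83 to 10.6. The ratio was larger in the earlier deposit for 46 genes and in the later one for 11, among them Kif18a, Smc2, Incenp and Mad2l1. Both groups stood higher in replicate 3. Sham replicate 3 was above sham replicates 1 and 2 in 52 of the 57 genes, and PNX replicate 3 above PNX replicates 1 and 2 in 55. The log2 ratios of the deposits had a Pearson's r of 0.91 over the 57 genes (0.87 over 56 genes without Pttg1), a description across genes, which share libraries and are not independent.

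Of 116 other textbook genes of mitosis and cytokinesis found in the files, all tested, 51 rose with the replicate block and 0 fell. With 6 libraries 44 rose. Over all genes tested, 3.89% rose and 1.23% fell with the block, and 2.28% rose with 6 libraries. Their median log2 fold change was 0.80, against 2.70 for the 57 genes, which had been chosen with earlier results known. The 5 highest were Fam64a (4.43), Ckap2 (3.95), Troap (3.83), Iqgap3 (3.80) and Pbk (3.70), and all 5 rose. The 5 lowest, none called, were Esco1 (-0.35), Numa1 (-0.22), Clasp2 (-0.20), Anapc11 (-0.19) and Wapal (-0.13). By role, 10 of 14 further genes of entry, 5 of 26 of the checkpoint and APC/C, 15 of 26 of centromere and kinetochore, 3 of 12 of cohesin, 2 of 5 of condensin, 9 of 25 of the spindle and 7 of 8 of cytokinesis rose. Some assemblies were also read as wholes, grouped after their values were seen. None of the 14 subunits of the APC/C was called (log2 fold change from -0.19 to 0.87). Nor was any of the 5 of the cohesin ring (-0.13 to 0.42) or the 8 of augmin, which branches microtubules (-0.03 to 0.76). The blocked fit called 5.12% of all genes tested, so 0 calls among so few genes are near that share. Anapc15, Haus4 and Haus8 had an adjusted p below 0.01 in edgeR with the block and missed only the size threshold. Of 14 further CENP genes of the centromere, 7 were called (0.06 to 2.52). The APC/C partners among the 57 genes, Ube2c and Cdc20, were at 3.50 and 2.96. Of cohesin regulators, Sgol1 (2.81), Esco2 (2.77) and Cdca5 (2.71) rose.

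DNA replication precedes mitosis in the cycle. Of 40 replication genes, 28 rose with the replicate block and 17 with 6 libraries, and 0 fell. Over all genes tested these shares were 3.89% and 2.28%. Their median log2 fold change was 1.24 and their range -0.03 (Gins4) to 2.51 (Cdc6), whereas 38 of the 57 mitosis and cytokinesis genes were above the highest of these. No test of this difference between lists was made.

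**Figure D5:**
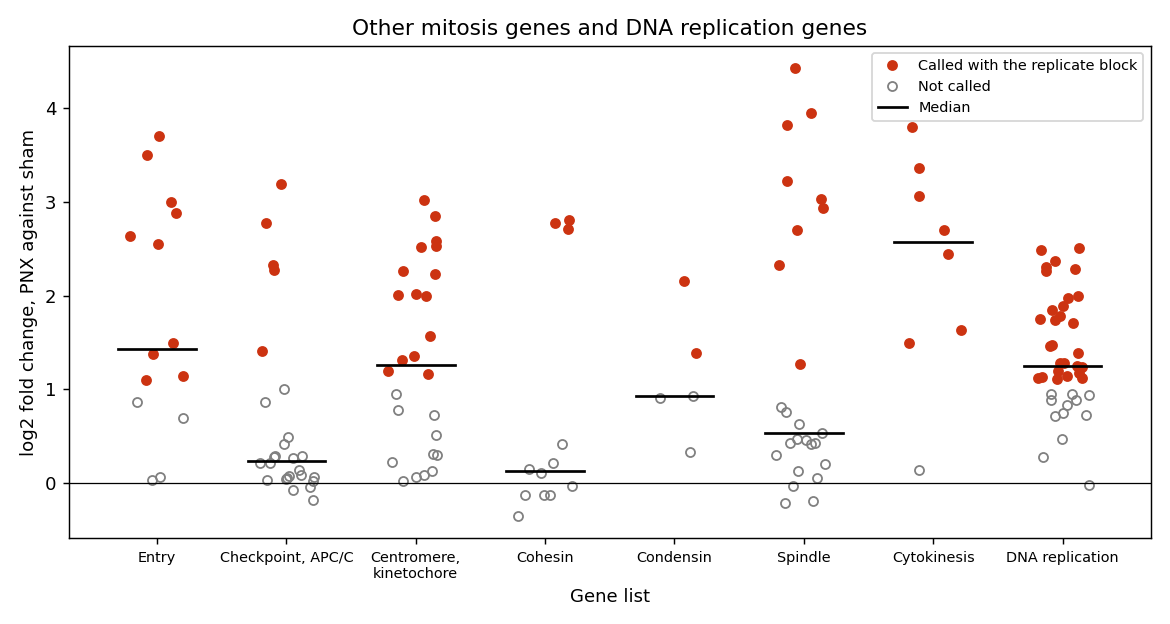
Log2 fold change, PNX against sham, of 116 other mitosis genes by role and of 40 DNA replication genes. Filled points were called with the replicate block, open points were not, and lines are medians. Cytokinesis and entry genes hold mostly filled points, and checkpoint and APC/C and cohesin genes mostly open ones.

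Markers of the labelled cell type were high in every library. The summed CPM of 12 EC markers was 9802 to 12014 in sham and 8886 to 10156 in PNX, and 0 of 12 were called. Of the 12, 8 were lower after PNX in both deposits and 1 was higher in both. Markers of other cells were present too, and some moved with PNX. Over all genes tested, 3.89% rose and 1.23% fell with the block, so 1 call among a few markers carries little weight. Of 9 fibroblast markers 5 rose, whereas Pdgfra and Tcf21 were lower after PNX in both deposits. The sum of the 9 was 3930 to 6612 CPM in sham and 15173 to 19547 in PNX, mostly from Fn1. Of 5 mesothelial markers 4 rose (98.8 to 304 CPM in sham, 259.6 to 759 in PNX). Of 12 macrophage markers 4 rose (2543 to 4687 and 3378 to 4545 CPM), whereas Siglec5 and Mertk were lower in both deposits. Of 6 mast cell markers 3 rose (7.56 to 13.4 and 15.1 to 29.9 CPM), and Ms4a2 was lower in both deposits. Of 6 neutrophil markers 1 rose (247 to 715 and 285 to 600.3 CPM), and Cxcr2 was lower in both deposits. Of 6 alveolar type 2 markers 3 fell (5237 to 5740.1 CPM in sham, 1991 to 3396 in PNX), of 4 alveolar type 1 markers 1 fell (1715 to 4392 and 640.3 to 3248 CPM) and of 4 club cell markers 4 fell (2428 to 4407 and 1127 to 1182 CPM). Of 6 B cell, 7 T cell, 8 smooth muscle or pericyte and 5 erythroid markers tested, 0 were called. All 6 B cell markers were still lower after PNX in both deposits (184 to 248 CPM in sham, 122 to 172 in PNX). So were 6 of the 7 T cell markers (71.7 to 136 and 47.4 to 98.8 CPM), whereas the 5 erythroid markers were higher in both. Of the smooth muscle or pericyte markers, 0 had the same direction in both deposits. No marker was at 0 in all libraries. The part of these cells in the RNA of the mitosis and cytokinesis genes was not tested.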

How the data were processed

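RNA of CD31-selected lung ECs was sequenced as 3 sham and 3 PNX libraries. Per the methods and labels, the authors made stranded paired-end mRNA libraries and counted reads against mm10 on the Basepair platform. The submitters' processing notes name STAR. The sources used here do not give the annotation release, the counting rule or the strand setting. For each RefSeq transcript the authors deposited a raw count, TPM and FPKM. The deposited counts were whole numbers. The deposited TPM, scaled by transcript length and library, was used for levels between genes and entered no test, and the deposited FPKM was not used.

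Counts were summed per symbol, a sum that can hold a read more than once for the 15 of 57 genes with several transcripts. Of the 57 genes, 15 share exon bases with a gene on the opposite strand (GENCODE vM21, GRCm38). Replicates 1 and 2 of each group, near counting error over 11747 and 11758 single-transcript genes (20 or more counts in a pair), were summed. Samples were grouped by the labels' treatment. edgeR 4.0.16 in R 4.3.3 (TMM, filterByExpr, glmQLFit, glmQLFTest, Benjamini-Hochberg) gave the tests, with DESeq2 1.42.0 and limma 3.58.1 (voom) as alternatives. The thresholds for a call are the study's. The labels mark the same replicate numbers as re-used in both groups and state no further pairing. Across 16598 genes, the shift from the earlier to the later deposit had a Pearson's r of 0.74 between sham and PNX. The Spearman's rho was 0.72. The fit with the deposit as replicate block is therefore given beside the one without.

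The 57 genes and all other lists were chosen with earlier results of these data known. Values in each library are given, within each of 8 role groups, for the gene with the highest count, the highest and the lowest fold change, and for Mki67, Top2a, Cdk1, Ccnb1, Plk1 and Aurkb. Of 117 other mitosis genes listed, 116 were matched, some by RefSeq synonyms. An exact interval of a ratio is a Clopper-Pearson interval of the PNX share of the counts at 95%. Promoters are RefSeq sequences, and 8 of the 57 genes had no entry.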

Additional observations from a re-analysis of the deposited data

How the results depend on the processing

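All 57 genes kept the sign of their log2 fold change in each of 17 alternatives and when each of the 6 libraries was left out. Over the 17 alternatives, which covered scaling, low-count filters, tool, replicate block, separate libraries, transcript choice and an adjusted p under 0.05, their median was 2.69 to 2.78. Leaving out 1 library gave 2.49 (without PNX replicate 3) to 3.13 (without sham replicate 3). The number of genes called depended on the fit. edgeR on 4 samples without a block called 0 genes (2076 at an unadjusted p under 0.05) and 0 of the 57, and 0 to 2 genes and 0 of the 57 without 1 library (2 without PNX replicate 3). limma-voom called 0. With the replicate block edgeR called 849 genes on 4 samples, 624 with DESeq2's size factors and 629 with library size alone. By the transcript with the highest total, a choice made after seeing the data, it called 727. On 6 libraries, where the block was the replicate number and not the deposit, it called 920. Each of these 5 fits called 56 of the 57. DESeq2 called 572 genes on 4 samples, 921 on 6 libraries and 810 with the replicate block, and 56 of the 57 each time. Without 1 library of the earlier deposit the blocked fit called 55 to 56 of the 57 and 485 to 863 of all genes. Kif18a was lost without PNX replicate 1. Without a library of the later deposit no blocked fit was run. Fits on all 6 libraries count replicates 1 and 2 of each group as separate samples and can understate the spread. With 6 separate libraries and no block edgeR called 409 genes and 51 of the 57. Leaving out 1 library gave 0 to 54 of the 57. Without sham replicate 1, sham replicate 2 or PNX replicate 1, that fit called 0 genes in all. It called 49 genes and 12 of the 57 without PNX replicate 2. The counts were 332 genes and 33 of the 57 without PNX replicate 3, and 517 genes and 54 of the 57 without sham replicate 3. The cause of these differences was not tested. All 57 genes passed the filter on low counts, so depth kept none from being tested, and n = 2 samples per group limits every test.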
